A study of Mus musculus with 2 samples.

Results

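Pericentral liver sinusoidal endothelial cells (LSECs) of control mice were taken here as sinusoidal endothelial barcodes with at least 1 unique molecular identifier (UMI, which marks a captured mRNA molecule) of *Rspo3*, the gene of the Wnt enhancer R-spondin 3. In the control library 256 barcodes met this rule, of 4040 sinusoidal endothelial barcodes (6.34%, exact 95% interval 5.60 to 7.13%), of 5664 barcodes in the library and of 12755 in both libraries. The rule required at least 1500 UMIs and 750 genes, at least 2 UMIs of *Pecam1*, *Cdh5* and *Ptprb* in sum (endothelial adhesion and signaling genes), 0 UMIs of the leukocyte and stroma genes *Ptprc*, *Adgre1*, *Cd79a* and *Dcn*, and 0 UMIs of the large-vessel genes *Vwf* and *Selp*. The other 3784 barcodes of the same gate held 0 *Rspo3* UMIs and are called *Rspo3*-negative. The barcodes were thus chosen by their measured *Rspo3* UMIs and by the gate genes, whose values are given only as a description. All intervals are exact, at the 95% level, and cover counting error only.

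LSECs line the capillaries of the liver lobule and differ along the path of the blood from the portal field to the central vein. Those next to the central vein make Wnt ligands and R-spondin 3, which act on the neighbouring hepatocytes and maintain their pericentral enzymes. *Wnt2* and *Wnt9b* encode these ligands, *Kit* the receptor of stem cell factor and *Cdh13* the adhesion molecule T-cadherin, and with *Rspo3* they are the 5 markers against which the barcodes were checked.

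The study set LSECs of control mice against those of *Maf* LSEC-KO mice in droplet-based 3′ scRNA-seq, in which each condition is 1 library from the pooled livers of 3 mice. *Maf* LSEC-KO mice were *Clec4g*-iCre tg/wt with *Maf* fl/fl, so that recombination was driven by the promoter of the LSEC lectin gene *Clec4g*, and the controls, called WT in the labels, were *Clec4g*-iCre wt/wt littermates carrying *Maf* fl/fl or *Maf* fl/wt. Endothelial cells were enriched by a density gradient and magnetic beads against CD146, an antigen that large-vessel endothelium also carries, and the age and sex of the pooled mice are not given in the sources used here. With 1 library per condition and cells that are not replicates, no test was made and no p is given.

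The 256 *Rspo3*-positive barcodes held 2892725 UMIs in all, with a median of 9973 per barcode (range 1544 to 37142), and the *Rspo3*-negative barcodes had a median of 8278.5. An *Rspo3* UMI was found more often where more was sequenced. Its share was 3.37, 5.84, 7.43 and 8.71% from the lowest to the highest quartile of UMIs, whose medians were 3059.5, 6604, 10130 and 14971.5. When each barcode was thinned at random to 2700 UMIs, 121 of 3642 barcodes (3.32%) still showed *Rspo3*. The *Rspo3*-negative barcodes therefore include an unknown number in which the gene was transcribed and not captured. The libraries shared 10 barcode sequences, 0 of them among the *Rspo3*-positive barcodes. *Rspo3* was at 0 in 18 B cell barcodes (median 5050 UMIs) and in 34 macrophage barcodes (median 2784.5 UMIs), which by 3 counts allows shares of up to 16.7% and 8.82%, above the 6.34% of the gate, so that these few barcodes set no useful limit on background.

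The 5 markers lie on different chromosomes of the mm10 genome. *Rspo3* (ENSMUSG00000019880) is at chr10:29452416-29535867 on the minus strand, *Wnt2* (ENSMUSG00000010797) at chr6:17988940-18030585 on the minus strand, and *Wnt9b* (ENSMUSG00000018486) at chr11:103727364-103749821 on the minus strand. *Kit* (ENSMUSG00000005672) is at chr5:75574916-75656722 and *Cdh13* (ENSMUSG00000031841) at chr8:118283733-119324921, both on the plus strand. The RefSeq promoter table (GRCm38.p6, the assembly of mm10) lists *Wnt2*, *Wnt9b* and *Kit*, which are shown because their levels were higher together in the *Rspo3*-positive barcodes. The windows run from 250 bases before to 50 bases after the start and are written in the direction of the gene: chr6:18030396-18030695 (minus strand), chr11:103749772-103750071 (minus strand) and chr5:75574737-75575036 (plus strand, the first of 2 listed starts of *Kit*). Capitals mark exact matches, on either strand, to 4 motifs, which are the MAF half-site (TGCTGA), the letters bound by zinc-finger factors of the Gata family (AGATAA), the core bound by ETS factors (AGGAAG) and the half-site of COUP factors and other nuclear receptors (AGGTCA).
Wnt2: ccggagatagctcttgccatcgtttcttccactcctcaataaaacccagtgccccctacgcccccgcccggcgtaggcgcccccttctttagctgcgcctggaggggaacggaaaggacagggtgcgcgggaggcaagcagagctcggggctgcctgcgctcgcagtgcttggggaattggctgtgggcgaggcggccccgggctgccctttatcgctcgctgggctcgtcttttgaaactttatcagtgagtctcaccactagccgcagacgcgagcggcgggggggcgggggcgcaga
Wnt9b: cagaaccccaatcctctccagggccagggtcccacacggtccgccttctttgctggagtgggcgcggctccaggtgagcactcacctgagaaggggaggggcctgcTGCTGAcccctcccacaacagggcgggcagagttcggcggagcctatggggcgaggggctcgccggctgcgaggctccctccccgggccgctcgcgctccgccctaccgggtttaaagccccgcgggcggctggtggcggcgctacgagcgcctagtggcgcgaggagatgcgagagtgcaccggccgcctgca
Kit: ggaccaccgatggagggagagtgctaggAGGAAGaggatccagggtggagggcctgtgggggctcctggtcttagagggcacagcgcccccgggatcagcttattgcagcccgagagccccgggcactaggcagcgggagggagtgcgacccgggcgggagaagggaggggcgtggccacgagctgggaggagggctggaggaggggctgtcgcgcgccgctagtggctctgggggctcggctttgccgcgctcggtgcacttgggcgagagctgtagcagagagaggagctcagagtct
In these windows *Wnt9b* had 1 match to the MAF half-site, *Kit* had 1 match to the ETS letters and *Wnt2* had 0 matches to all 4. Of 32851 listed promoters of this length, 19.5% held the MAF half-site, 11.2% the Gata letters, 35.4% the ETS letters and 16.3% the COUP half-site, and no match marks a bound site.

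The label was checked against the other 4 markers, which the rule did not use. All 4 were higher in *Rspo3*-positive than in *Rspo3*-negative barcodes, in CPM (UMIs of a gene per 1e6 UMIs, ribosomal protein and mitochondrial genes left out of the total). *Wnt2* was at 509 CPM (481 to 537) against 249 CPM (244 to 255), a log2 ratio of 1.03 (0.94 to 1.11). *Wnt9b* was at 69.2 CPM (59.4 to 80.2) against 8.74 CPM (7.71 to 9.86), a log2 ratio of 2.99 (2.70 to 3.27). *Kit* was at 691 CPM (659 to 724) against 317 CPM (311 to 323), or 1.12 (1.05 to 1.20) as a log2 ratio. The ligands thus differed in ratio, and *Wnt2* was common on both sides while *Wnt9b* was rare among *Rspo3*-negative barcodes. *Cdh13* was at 352 CPM (330 to 376) against 117 CPM (114 to 121), a log2 ratio of 1.59 (1.48 to 1.69). With the *Rspo3*-negative barcodes weighted to the same UMI totals, *Wnt2* was still the lowest of the 4 in log2 ratio, which was 2.91 for *Wnt9b*, 1.08 for *Kit* and 1.52 for *Cdh13*.

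Per barcode, the median number of UMIs among *Rspo3*-positive barcodes was 4.5 for *Wnt2* (highest 20), 5 for *Kit* (highest 31), 2.5 for *Cdh13* (highest 14) and 0 for *Wnt9b* (highest 7). At least 1 UMI was present in 88.7% of them for *Wnt2*, 89.1% for *Kit*, 75.8% for *Cdh13* and 33.6% for *Wnt9b*. The *Rspo3*-negative shares were 58.4%, 56.0%, 34.6% and 5.05%. At 2700 UMIs per barcode, which left out 12 *Rspo3*-positive and 386 *Rspo3*-negative barcodes, the shares were 67.2 against 37.1% for *Wnt2*, 68.9 against 37.5% for *Kit*, 50.8 against 18.2% for *Cdh13* and 18.9 against 1.88% for *Wnt9b*. In the macrophage barcodes, which should lack these genes, 1 of 34 had a *Wnt2* UMI (2.94%), 3 of 34 a *Kit* UMI (8.82%) and 0 of 34 a *Wnt9b* or *Cdh13* UMI, before thinning.

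The markers also met in single barcodes. At 2700 UMIs, all 4 were seen in 19 of 244 *Rspo3*-positive barcodes (7.79%, 4.75 to 11.9%) and in 20 of 3398 *Rspo3*-negative barcodes (0.589%, 0.360 to 0.908%). None of the 4 was seen in 8.61% and 41.3%. The sets overlapped in every class, as the plot of markers seen together shows, and 11 *Rspo3*-positive barcodes (4.30%) had none of the 4 markers in all of their UMIs, whereas 127 *Rspo3*-negative barcodes (3.36%) had all 4. The *Rspo3*-positive barcodes held 14.8% of all *Wnt2* UMIs of the sinusoidal gate, 15.6% of *Kit*, 20.3% of *Cdh13* and 40.2% of *Wnt9b*, against 7.78% of the UMIs of all genes.

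**Figure D1:**
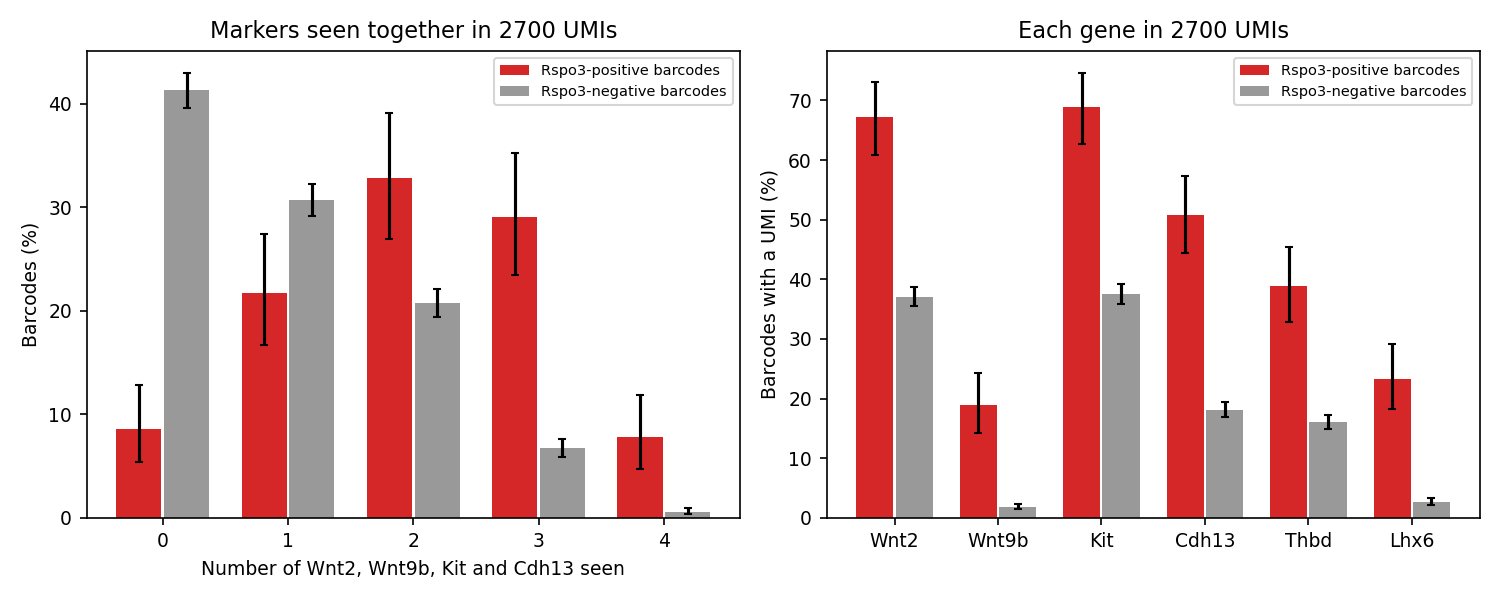
Share of barcodes (%) by the number of *Wnt2*, *Wnt9b*, *Kit* and *Cdh13* seen (left) and with a UMI of each of 6 genes (right), at 2700 UMIs per barcode in the control library. Red bars are *Rspo3*-positive and grey bars *Rspo3*-negative barcodes, lines are exact 95% intervals, and all 4 markers were seen in 7.79% of red and 0.589% of grey barcodes.

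The *Rspo3*-positive barcodes were uneven in *Rspo3* itself. Of 1081 *Rspo3* UMIs, 109 barcodes held 1 each, 75 barcodes held 2 to 3, 37 held 4 to 7 and 35 held 8 or more, with a median of 2 and a highest value of 71. The 35 barcodes with 8 or more held 55.4% of the UMIs, and 11 barcodes with 20 or more held 31.0%. The median UMI total was 9387, 10795, 9308 and 11103 from the lowest to the highest class. Barcodes just outside the rule (0 *Rspo3* UMIs) and just inside it (1 UMI) had 249 and 352 CPM of *Wnt2*, 8.74 and 23.8 CPM of *Wnt9b*, 317 and 574 CPM of *Kit*, and 117 and 233 CPM of *Cdh13*.

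Levels of the pericentral genes were graded with the number of *Rspo3* UMIs. *Wnt9b* was at 8.74, 23.8, 62.3, 118 and 173 CPM in barcodes with 0, 1, 2 to 3, 4 to 7 and 8 or more *Rspo3* UMIs. *Thbd*, which encodes the anticoagulant receptor thrombomodulin, was at 87.5, 160, 229, 388 and 538 CPM over the same classes. *Fabp4*, a fatty acid carrier, was at 1062, 1624, 2265, 3242 and 3821 CPM. The order of the classes was the same for these genes, whereas *Cdh13* reached 546 CPM with 4 to 7 and 529 CPM with 8 or more *Rspo3* UMIs, and *Kit* had 785, 631 and 872 CPM in the upper 3 classes. In the opposite direction, *Msr1*, a macrophage-type scavenger receptor also carried by LSECs, was at 398, 252, 164, 91.0 and 47.3 CPM. *Hes1*, a target of Notch signaling, was at 317, 284, 208, 146 and 83.6 CPM. *Lyve1*, the hyaluronan receptor of LSECs, was at 745, 599, 660, 443 and 212 CPM and thus was low mainly in the upper classes. The top class pools 24 barcodes with 8 to 19 and 11 with 20 or more *Rspo3* UMIs. Between these, *Msr1* rose from 12.9 CPM (2.65 to 37.6) to 111 CPM (60.7 to 186). *Hes1* rose from 51.5 to 143 CPM, *Dll4* from 17.2 to 95.2 CPM, *Ltbp4* from 245 to 405 CPM and *Adam23* from 339 to 587 CPM. *Lyve1* (236 and 167 CPM) and *Efnb2* (51.5 and 47.6 CPM) did not rise. *Gata4*, an LSEC transcription factor, stayed between 236 and 288 CPM.

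**Figure D2:**
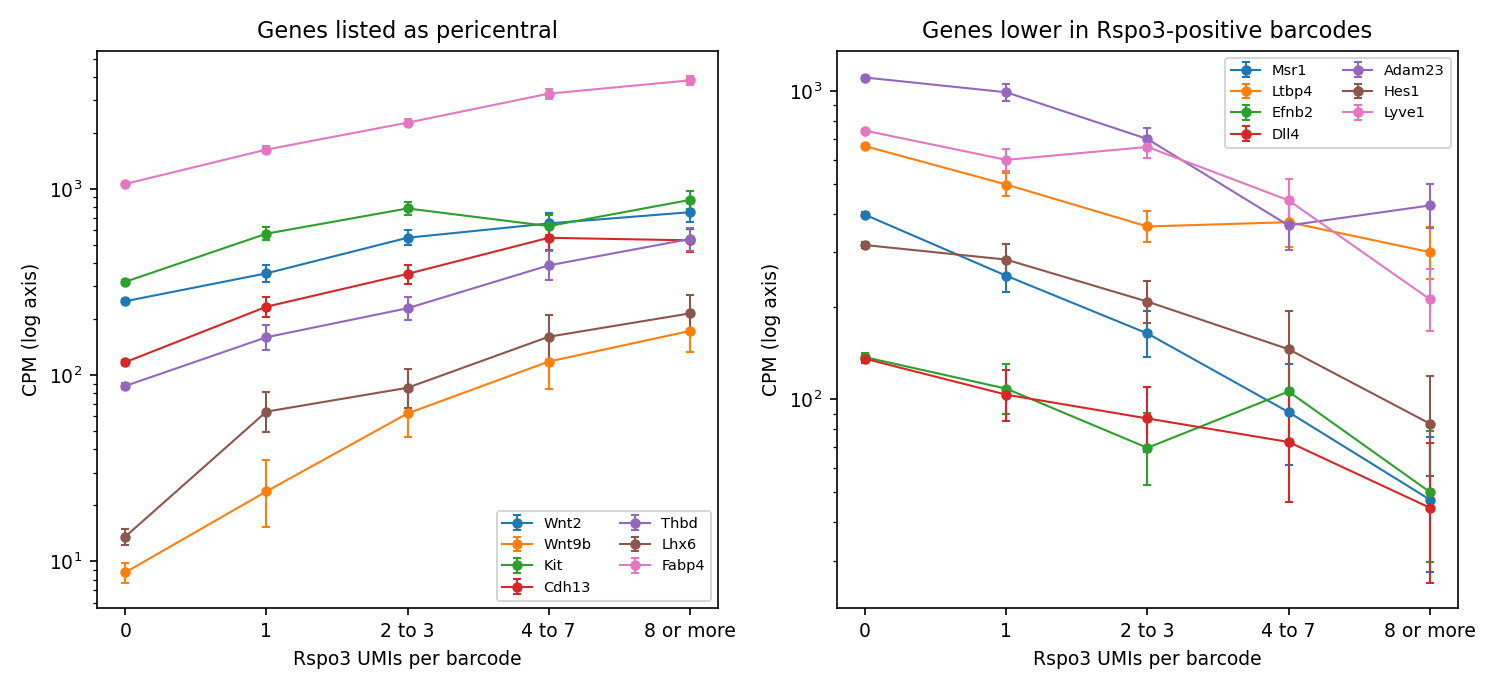
Level in CPM (log axis) of genes listed as pericentral (left) and of genes lower in *Rspo3*-positive barcodes (right), by the number of *Rspo3* UMIs per barcode. Points are summed UMIs of 3784, 109, 75, 37 and 35 barcodes given as CPM, lines are exact Poisson 95% intervals, and *Wnt9b* runs from 8.74 to 173 CPM while *Msr1* runs from 398 to 47.3 CPM. The last class pools barcodes with 8 to 19 and with 20 or more *Rspo3* UMIs, in which *Msr1* was at 12.9 and 111 CPM.

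The share of *Rspo3*-positive barcodes followed the other markers in turn. Among barcodes with 0 UMIs of *Wnt2*, *Wnt9b*, *Kit* and *Cdh13* in sum at 2700 UMIs, 21 of 1424 (1.47%) were *Rspo3*-positive. The share was 4.77, 7.18, 17.2 and 37.7% at sums of 1, 2 to 3, 4 to 7 and 8 or more. With the summed portal-side genes *Efnb2*, *Dll4*, *Ltbp4*, *Msr1* and *Adam23* it ran the other way, from 23.6% at a sum of 0 through 16.0, 9.48 and 4.15% to 19 of 982 (1.93%) at a sum of 8 or more. The same order held when *Rspo3* was also read in 2700 UMIs, with 0.702% at the lowest and 23.6% at the highest central sum. Median UMI totals before thinning lay between 7990 and 9690 in these classes. The 5 portal-side genes were the 4 of the periportal list past 1.5-fold lower in these same barcodes, and *Adam23*. *Cyp26b1* of that list, which was higher, was left out. The falling order was thus largely fixed by the choice of genes and is no separate support.

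**Figure D3:**
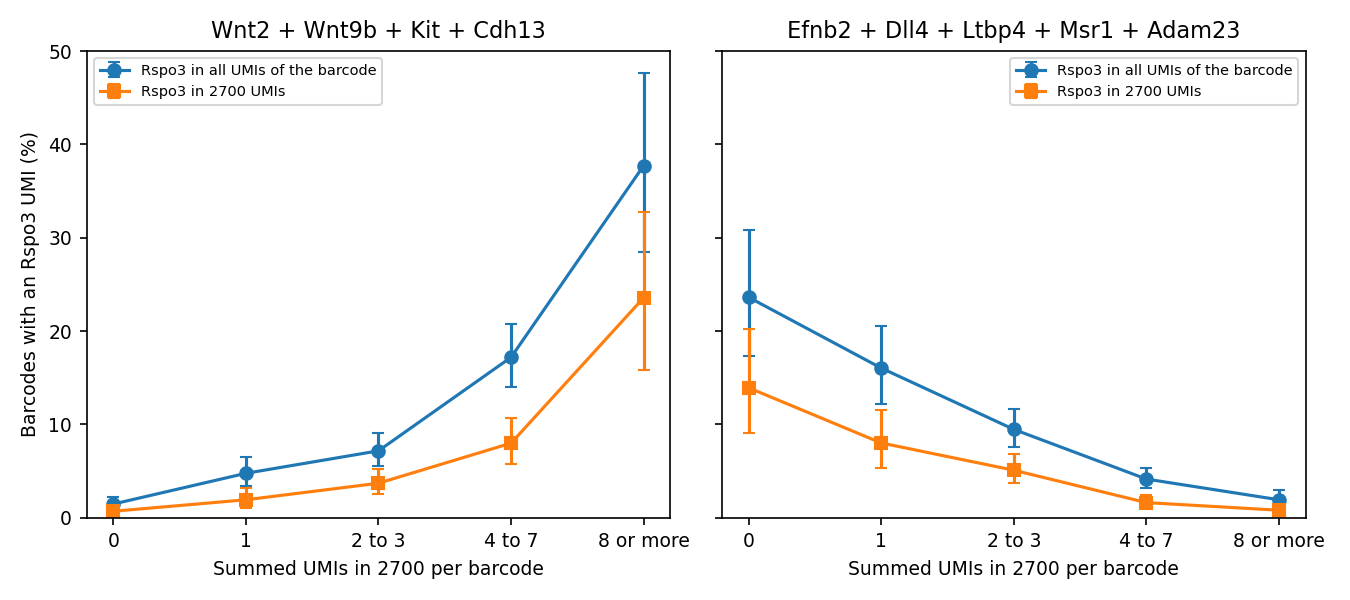
Share of sinusoidal endothelial barcodes with an *Rspo3* UMI (%) by the summed UMIs, in 2700 per barcode, of 4 pericentral genes (left) and of 5 portal-side genes (right). The 5 genes on the right were all lower in *Rspo3*-positive barcodes of these data, so that their order is no separate support. Circles read *Rspo3* in all UMIs and squares in the same 2700 UMIs, lines are exact 95% intervals, and the circles run from 1.47 to 37.7% on the left and from 23.6 to 1.93% on the right.

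Across the transcriptome the *Rspo3*-positive barcodes resembled the rest of the gate. Of 7032 genes with at least 20 CPM in either set, 128 (1.82%) were more than 1.5-fold higher and 62 (0.882%) more than 1.5-fold lower in *Rspo3*-positive barcodes, and the median log2 ratio was 0.02. Of these, 55 higher and 35 lower genes reached 20 CPM in 1 set only, so that the minimum fixed their direction. Among 6563 genes with at least 20 CPM in both sets, 73 (1.11%) were higher and 27 (0.411%) lower. With UMI totals matched, 115 of the 7032 (1.64%) were higher and 64 (0.910%) lower. These counts are descriptions with no replicate check. Of 9 other genes listed as pericentral, 8 were past 1.5-fold higher and 0 were lower, with a median log2 ratio of 1.14, and 6 of 7 were higher among those with 20 CPM in both sets. The ninth, *Plpp1*, a lipid phosphatase, was at 1459 against 980 CPM (log2 ratio 0.57). Of 10 genes listed as periportal, 4 were past 1.5-fold lower and 1 was higher, with a median of -0.57. The lists were drawn up with earlier results of these data known.

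**Figure D4:**
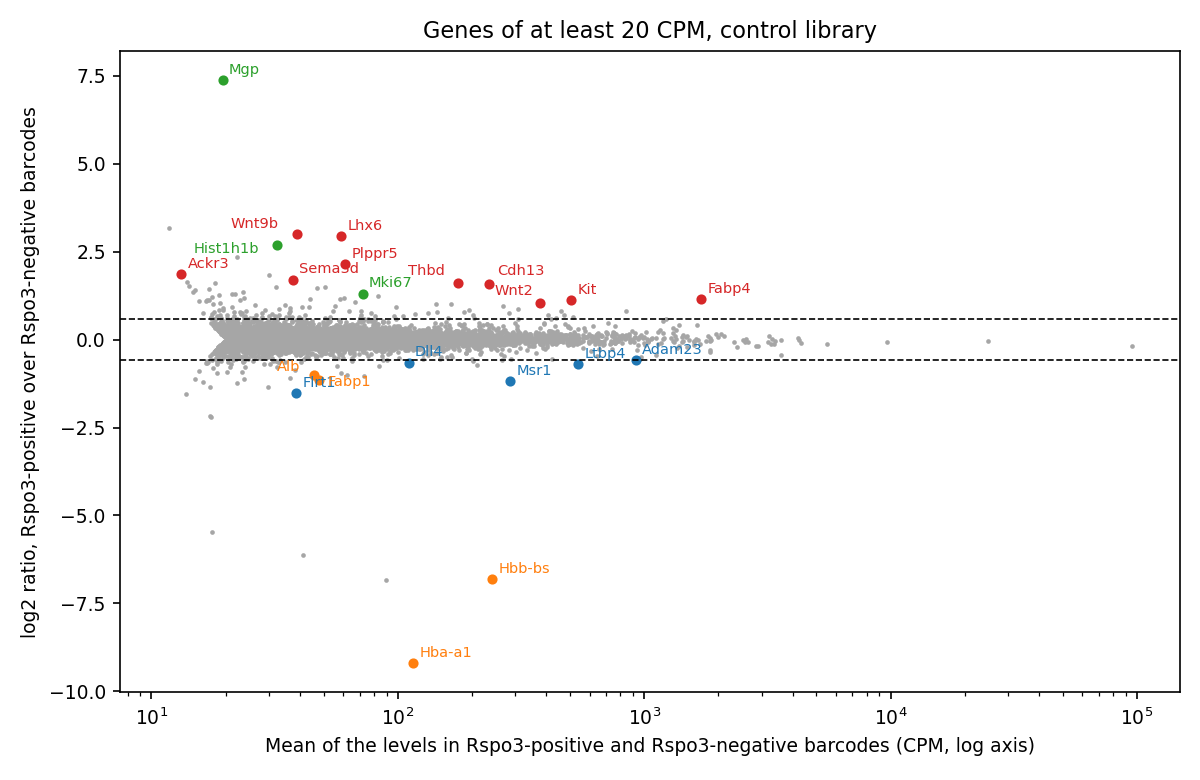
log2 ratio of *Rspo3*-positive to *Rspo3*-negative barcodes against the mean of both levels (CPM, log axis) for genes of at least 20 CPM in either set, control library. Each grey point is a gene, dashed lines mark 1.5-fold, and 128 genes lie above and 62 below them. Red marks higher and blue lower genes named in the text. Of these, *Plppr5*, *Sema3d*, *Ackr3* and *Flrt1* were on neither the pericentral nor the periportal list. Green marks genes of which a single barcode held a large part of the UMIs, and orange marks hepatocyte and hemoglobin genes.

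After *Wnt9b*, the gene of at least 50 CPM in either set with the largest ratio was *Lhx6*, a LIM homeobox transcription factor. It was at 104 CPM (92.2 to 118) against 13.6 CPM, a log2 ratio of 2.94 (2.71 to 3.17). *Plppr5*, a phospholipid phosphatase-related membrane protein, was at 99.7 against 22.4 CPM (2.15, 1.94 to 2.36). *Sema3d*, a secreted guidance factor, was at 57.5 against 17.6 CPM (1.70, 1.43 to 1.97). No single barcode held more than 5% of the UMIs of these 3 genes. Over the 5 classes of *Rspo3* UMIs *Lhx6* was at 13.6, 63.7, 85.6, 161 and 214 CPM and *Plppr5* at 22.4, 62.8, 106, 124 and 170 CPM. *Sema3d* was at 17.6, 36.1, 42.8, 118 and 97.5 CPM and so was not highest in the top class. *Thbd* was at 264 CPM (245 to 285) against 87.5 CPM, a log2 ratio of 1.59 (1.47 to 1.72). *Fabp4* was at 2346 against 1062 CPM (1.14, 1.10 to 1.18), *Jup*, the junction protein plakoglobin, at 116 against 49.3 CPM (1.23), and *Bcam*, a laminin receptor, at 80.1 against 35.8 CPM (1.16). *Rab3b*, a vesicle traffic GTPase from the pericentral list, was at 40.6 against 25.2 CPM (0.69, 0.38 to 0.99). *Wnt9b*, *Lhx6*, *Plppr5*, *Sema3d*, *Jup* and *Bcam* reached 50 CPM only in the *Rspo3*-positive barcodes, so that the minimum fixed their direction in this ranking.

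Genes with a role in blood clotting and vessel tone were described as a list of 16 outside the rule. Of 9 with at least 20 CPM in either set, 4 were past 1.5-fold higher and 0 were lower, beside 1.82% and 0.882% of all genes. *Entpd1* reached the minimum only in the *Rspo3*-positive barcodes, and without it 3 of 8 were higher. Besides *Thbd* these were *Ptgs1*, the cyclooxygenase of prostaglandin synthesis, at 585 against 330 CPM (0.82), *Tfpi2*, a protease inhibitor, at 34.4 against 22.0 CPM (0.65, 0.31 to 0.97), and *Entpd1*, the ectonucleotidase CD39, at 21.1 against 2.36 CPM (3.16, 2.62 to 3.69). *Entpd1* was seen in 12.9% of *Rspo3*-positive barcodes. *F8*, coagulation factor VIII, was at a log2 ratio of 0.17 and *Nos3*, the endothelial nitric oxide synthase, at 0.13.

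Of 10 vein genes with at least 20 CPM in either set, 5 were past 1.5-fold higher and 1 was lower, beside 1.82% and 0.882% of all genes. With 20 CPM in both sets these were 4 and 0 of 8, and with UMI totals matched 4 of the 10 were higher, *Emcn* falling inside 1.5-fold. *Plvap*, the fenestral diaphragm protein, was at 249 against 139 CPM (0.84, 0.72 to 0.96). *Bgn*, a matrix proteoglycan, was at 629 against 402 CPM (0.65) and *Emcn*, an endothelial sialomucin, at 367 against 245 CPM (0.59, 0.49 to 0.68, where 1.5-fold is 0.58). The others were *Lhx6* and *Ptgs1*. *Ackr1*, an atypical chemokine receptor of venules, was lower, at 16.8 against 42.4 CPM (-1.34, -1.81 to -0.90). *Lhx6* and *Ackr1* each reached 20 CPM only in the set where they were high, so that the minimum fixed their direction. Of 2 other atypical chemokine receptors, *Ackr3* was at 20.7 against 5.71 CPM (1.86) and *Ackr4* at 99.7 against 62.5 CPM (0.67). *Ackr3* reached the minimum only in the *Rspo3*-positive barcodes, so that the minimum fixed its direction. Over the 5 classes of *Rspo3* UMIs it was at 5.71, 20.9, 15.9, 6.07 and 44.6 CPM and thus was not graded.

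The lower genes were led, apart from transcripts of red blood cells, by *Flrt1*, a guidance receptor, at 19.9 against 57.3 CPM (-1.52, -1.96 to -1.12). *Flrt1* reached 20 CPM only in the *Rspo3*-negative barcodes, so that the minimum fixed its direction. *Msr1* was at 174 against 398 CPM (-1.19, -1.33 to -1.05) and was seen in 33.6 against 62.1% of barcodes. *Ltbp4*, which binds latent TGF-beta to the matrix, was at 412 against 664 CPM (-0.69). *Dll4*, a Notch ligand, was at 86.0 against 136 CPM (-0.66, -0.86 to -0.46), and *Efnb2*, the ligand of arterial identity ephrin-B2, at 87.6 against 137 CPM (-0.65, -0.85 to -0.45). *Msr1*, *Ltbp4*, *Dll4* and *Efnb2* were the 4 members of the periportal list lower past 1.5-fold, and *Adam23*, an adhesion protein, was at 739 against 1109 CPM (-0.58), just inside 1.5-fold. *Cyp26b1*, a retinoic acid hydroxylase that was listed as periportal, went against the list at 1071 against 615 CPM (0.80), and its UMIs per barcode ran from a median of 1 to 101.

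Other genes of at least 50 CPM in either set with low ratios had varied roles. *Tnik*, a kinase, was at 48.1 against 98.2 CPM (-1.03), *Mecom*, a transcription factor of arterial endothelium, at 39.9 against 77.6 CPM (-0.96), and *Lama4*, a laminin chain of vascular basement membrane, at 158 against 260 CPM (-0.72). *Hmcn1*, a matrix protein, was at 62.9 against 106 CPM (-0.75), *Clca3a1* at 42.2 against 70.8 CPM (-0.75) and *Gm35533* at 41.4 against 82.6 CPM. *Tnik*, *Mecom*, *Clca3a1* and *Gm35533* reached 50 CPM only in the *Rspo3*-negative barcodes, so that the minimum fixed their direction in this ranking. *Cd36*, a fatty acid and scavenger receptor, was at 777 against 1149 CPM (-0.56), inside 1.5-fold, whereas *Fabp4* of the same lipid list was higher.

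Within the Notch list, 11 of 19 genes had at least 20 CPM, of which 1 was higher, 1 was lower and 9 were inside 1.5-fold, beside 1.82% higher and 0.882% lower of all genes. The higher gene was *Lfng*, a glycosyltransferase that modifies Notch receptors, at 73.5 against 38.1 CPM (0.95, 0.72 to 1.17), and the lower gene was *Dll4*. *Hes1* was at 214 against 317 CPM (-0.57, -0.70 to -0.44), just inside the fold, and the receptor *Notch1* was at 377 against 375 CPM (0.01).

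Among genes for Wnt ligands and their release, only *Wnt2* and *Wnt9b* of 6 measured at 20 CPM were past 1.5-fold. Both were higher, beside 1.82% of all genes. *Wnt9b* reached the minimum only in the *Rspo3*-positive barcodes, and without it 1 of 5 was higher. *Wls*, the carrier that takes Wnt proteins to the cell surface, was at 207 against 204 CPM (0.02), and *Wnt2b*, *Wnt5a*, *Wnt11*, *Rspo1*, *Rspo2* and *Rspo4* were at 0 in *Rspo3*-positive barcodes. Of 13 Wnt receptors and targets at this level, *Dkk3*, at 21.1 against 9.96 CPM (1.08), was past 1.5-fold, and it reached the minimum only in the *Rspo3*-positive barcodes. Of the 11 with 20 CPM in both sets 0 were past it, beside 1.11% higher and 0.411% lower of all genes. That count is near the share of all genes. The receptor gene *Fzd4* was at 277 against 230 CPM (0.27) and *Lrp6* at 228 against 209 CPM (0.13). *Axin2*, a common target of Wnt signaling, was at 2.74 (1.10 to 5.64) against 2.06 CPM (1.58 to 2.64), not distinguishable at this depth.

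Genes of the general LSEC program stayed inside 1.5-fold, as most genes did. Of 20 shared LSEC and scavenger genes, 0 were past 1.5-fold, beside 1.82% higher and 0.882% lower of all genes. Their median log2 ratio was -0.02. A count of 0 is near the share of all genes and is not particular to this list. *Stab2*, a hyaluronan scavenger receptor, was at 1631 against 1627 CPM (0.00, -0.04 to 0.05), *Maf* at 3230.1 against 3504 CPM (-0.12, -0.15 to -0.09) and *Clec4g*, the gene whose promoter drives the Cre, at 2700.1 against 3075 CPM (-0.19). *Lyve1* was at 544 against 745 CPM (-0.45, -0.53 to -0.38). In the 35 barcodes with 8 or more *Rspo3* UMIs these 4 genes were lower than in *Rspo3*-negative barcodes. *Stab2* was at 1281 CPM there, *Maf* at 2813 CPM, *Clec4g* at 2164 CPM and *Lyve1* at 212 CPM. *Gata4* was not lower, at 284 against 253 CPM. All 12 VEGF and Tie receptor genes and all 15 hypoxia and glycolysis genes measured at 20 CPM stayed inside 1.5-fold, as with 6842 of all 7032 genes.

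Among 15 angiocrine genes with at least 20 CPM in either set, 3 were past 1.5-fold higher and 1 was lower, beside 1.82% and 0.882% of all genes. *Pdgfb*, *Dkk3* and *Igfbp5* each reached the minimum only in the set where they were high. Of the 12 with 20 CPM in both sets, *Gas6* alone was past 1.5-fold, beside 1.11% higher and 0.411% lower of all genes. *Gas6* had 0.58 with UMI totals matched, just inside. *Gas6*, a ligand of TAM receptors, was at 528 against 347 CPM (0.60), and *Pdgfb* at 22.7 against 13.3 CPM (0.77, 0.35 to 1.17). The third was *Dkk3*. *Igfbp5* was at 6.25 against 28.2 CPM (-2.17), and 1 barcode held all of its 16 UMIs among *Rspo3*-positive barcodes. *Bmp2*, a LSEC ligand that controls hepatocyte hepcidin, was at 2044 against 1932 CPM (0.08), and *Hgf* at 108 against 144 CPM (-0.42).

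Some differences rested on few barcodes. *Mgp*, a matrix protein of arteries and fibroblasts, had 99 UMIs in *Rspo3*-positive barcodes, of which 98 were in 1 barcode, the barcode that also held the *Igfbp5* UMIs and 24.5% of the *Fos* UMIs. *Hist1h1b*, a replication histone, was at 55.9 against 8.64 CPM (2.69), and *Mki67*, a marker of dividing cells, at 102 against 41.4 CPM (1.31), but 1 barcode of 27821 UMIs held 42.0% and 37.8% of these UMIs. *Top2a* (1.19), *Cenpf* (1.14) and the histone *Hist1h2ap* (1.48) were likewise high. Barcodes with at least 2 UMIs of *Mki67* and *Top2a* numbered 11 of 256 (4.30%) and 75 of 3784 (1.98%). Without them *Hist1h1b* still had a log2 ratio of 2.15 and *Cenpf* of 1.43, whereas *Hist1h2ap* had 0.24. *Mki67* itself chose the barcodes left out, so its value without them is not read. Of 9 cycling genes at 20 CPM in either set, 4 were past 1.5-fold higher (1.82% of all genes), and 2 were when the UMI totals were matched (1.64% of all genes). With 20 CPM in both sets 3 of 5 were higher (1.11% of all genes). The cycling gene *Ube2c* and *Hist1h1b* reached 20 CPM only in the *Rspo3*-positive barcodes, so that the minimum fixed their direction.

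Genes of the interferon response and early response were uneven as well. At 2700 UMIs, the genes with the largest variance over mean after *Malat1*, *Gm42418* and *Mgp* were *Cxcl10*, an interferon-induced chemokine (22.4, and 8.28 in *Rspo3*-negative barcodes), and *Rsad2*, an antiviral protein (10.7 and 4.48). *Cxcl10* was seen in 31 of 244 barcodes, and 1 barcode held 28.6% of its UMIs. *Cyp26b1* had a mean of 2.58 UMIs, was seen in 106 of 244 barcodes, and had a variance over mean of 7.21 (5.41 in *Rspo3*-negative barcodes).

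Markers of other cell types were compared between the same sets. The hemoglobin genes *Hba-a1*, *Hba-a2*, *Hbb-bs* and *Hbb-bt* had 1, 4, 11 and 3 UMIs, and their high level in *Rspo3*-negative barcodes (230, 177, 479 and 81.4 CPM) came mainly from 5 barcodes that held 98.2% of these UMIs. Hepatocyte genes took 0.0277% of UMIs against 0.0450%, and 6 of 7 with 20 CPM in either set (3 of 4 with it in both) were past 1.5-fold lower, beside 0.882% of all genes, *Alb* at 30.5 against 61.2 CPM and *Glul*, the glutamine synthetase of pericentral hepatocytes, at 160 against 244 CPM (-0.61). This list summed to 313 against 513 CPM, of which *Glul* alone was a large part. Whether the *Glul* UMIs came from hepatocytes or from the endothelial cells was not tested. The part of hepatocyte RNA in other differences was not tested either. The 10 macrophage markers outside the rule summed to 93.8 against 93.1 CPM, and 8 of 11 lymphocyte genes were at 0, *Ptprc* and *Cd79a* by the rule. The 10 stellate cell markers outside the rule summed to 118 against 94.1 CPM, most of it *Ecm1* (109 against 83.3 CPM), with *Pdgfrb* at 0. *Lyz2* was at 21.5 against 14.3 CPM (0.59), with 47.3% of its UMIs in 1 barcode. The median share of mitochondrial UMIs was 3.64 against 4.33%, and *Malat1*, a nuclear RNA, was at a log2 ratio of -0.04.

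The nearest other barcodes were the 144 of the endothelial gate with *Rspo3* and at least 1 UMI of *Vwf* or *Selp*, called vein side here. They were 54.1% of the 266 barcodes with *Vwf* or *Selp* and held 4576 *Rspo3* UMIs against 1081 in the 256 sinusoidal barcodes, a median of 15.5 against 2 per barcode. In the vein side *Rspo3* was at 3077 CPM, *Wnt9b* at 217 CPM (log2 ratio to the sinusoidal *Rspo3*-positive barcodes 1.65, 1.38 to 1.92), *Cdh13* at 674 CPM (0.94), *Thbd* at 476 CPM (0.85), *Wnt2* at 747 CPM (0.55) and *Kit* at 726 CPM (0.07, -0.04 to 0.18). For *Wnt9b*, *Cdh13*, *Thbd* and *Wnt2* the sinusoidal *Rspo3*-positive barcodes thus lay between the *Rspo3*-negative barcodes and the vein side, and for *Kit* the interval of the ratio to the vein side included 0. The place of *Rspo3* in that order was fixed by the rule. *Lyve1* was at 143 CPM in the vein side (-1.93) and *Stab2* had a log2 ratio of -0.71.

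Several genes that were high in the vein side were low in the sinusoidal *Rspo3*-positive barcodes. *Edn1*, the vasoconstrictor endothelin 1, was at 2.74 CPM (1.10 to 5.64) there and at 147 CPM in the vein side (5.74, 4.68 to 7.08). *Fbln2*, a matrix fibulin, was at 2.35 against 182 CPM (6.27, 5.13 to 7.73), and *Bmp4*, a bone morphogenetic protein, at 3.52 against 297 CPM (6.40, 5.46 to 7.54). *Edn1* and *Fbln2* in *Rspo3*-negative barcodes were at 2.09 and 2.92 CPM, inside the intervals of the sinusoidal *Rspo3*-positive barcodes. *Vcam1*, a leukocyte adhesion molecule, was at 101 CPM, at 309 CPM in the vein side and at 102 CPM in *Rspo3*-negative barcodes. Hemoglobin UMIs made up 0.532% of all UMIs of the vein side, and their part in these ratios was not tested.

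A portal side of the gate, fixed as *Rspo3*-negative barcodes with at least 2 UMIs of *Efnb2*, *Dll4* and *Ltbp4*, took 3048 of 3784 *Rspo3*-negative barcodes (80.5%) and so did not separate a zone. Its levels are not compared.

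Applied to the *Maf* LSEC-KO library, the rule found 120 of 2948 sinusoidal barcodes (4.07%, 3.39 to 4.85%), and 31 of 2783 (1.11%) at 2700 UMIs against 3.32% in control. *Maf* was at 151 CPM in them and at 124 CPM in *Rspo3*-negative barcodes of that library, far under the control levels of 3230.1 and 3504 CPM. The gate with *Vwf* or *Selp* held 1104 of 4052 endothelial barcodes (27.2%) there and 266 of 4306 (6.18%) in control, so the rule left out a larger part of that library. Of the 120 barcodes, 22.5% had at least 2 UMIs of *Mki67* and *Top2a*, near the 21.1% of *Rspo3*-negative barcodes of that library. Differences between the libraries have no replicate, and genotype and library cannot be told apart.

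*Wnt2* was at 86.9 CPM (73.1 to 103) in *Maf* LSEC-KO *Rspo3*-positive barcodes, against 32.6 CPM in *Rspo3*-negative barcodes of that library (log2 ratio 1.41, 1.15 to 1.67) and 509 CPM in control *Rspo3*-positive barcodes. *Wnt9b* was at 30.4 against 2.43 CPM (3.65, 3.11 to 4.17) and *Cdh13* at 23.6 against 9.50 CPM (1.31, 0.79 to 1.80). *Kit* was at 62.1 against 66.4 CPM (-0.10, -0.40 to 0.19). So both ligands and *Cdh13* had a positive ratio in either library at lower levels in *Maf* LSEC-KO, while the interval for *Kit* included 0 there. *Thbd* was at 54.0 against 28.4 CPM (0.93) and *Fabp4* at 2325 against 2008 CPM (0.21). *Msr1* was at 84.4 against 97.3 CPM (-0.21, -0.46 to 0.04).

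Of the 128 genes past 1.5-fold higher in control *Rspo3*-positive barcodes, 83 reached 20 CPM in either set of *Maf* LSEC-KO. Of these, 17 were past 1.5-fold higher there as well, with 1 past it in the other direction. In that library 84 of 7464 genes (1.13%) were past 1.5-fold higher and 84 (1.13%) lower. The 17 included *Wnt2*, *Wnt9b*, *Cdh13*, *Thbd*, *Lhx6*, *Plppr5*, *Lfng*, *Jup* and *Rab3b*, and also the histones *Hist1h1b*, *Hist1h2ap* and *Hist1h2ae*. *Wnt9b* and *Cdh13* reached 20 CPM there only in the *Rspo3*-positive barcodes, so that the minimum fixed their direction in this count. A count with 20 CPM in both sets was not made for that library. Of the 62 lower genes, 52 were measured and 9 were lower there too, among them *Mecom*, *Gm35533*, *Alb* and 3 hemoglobin genes.

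**Figure D5:**
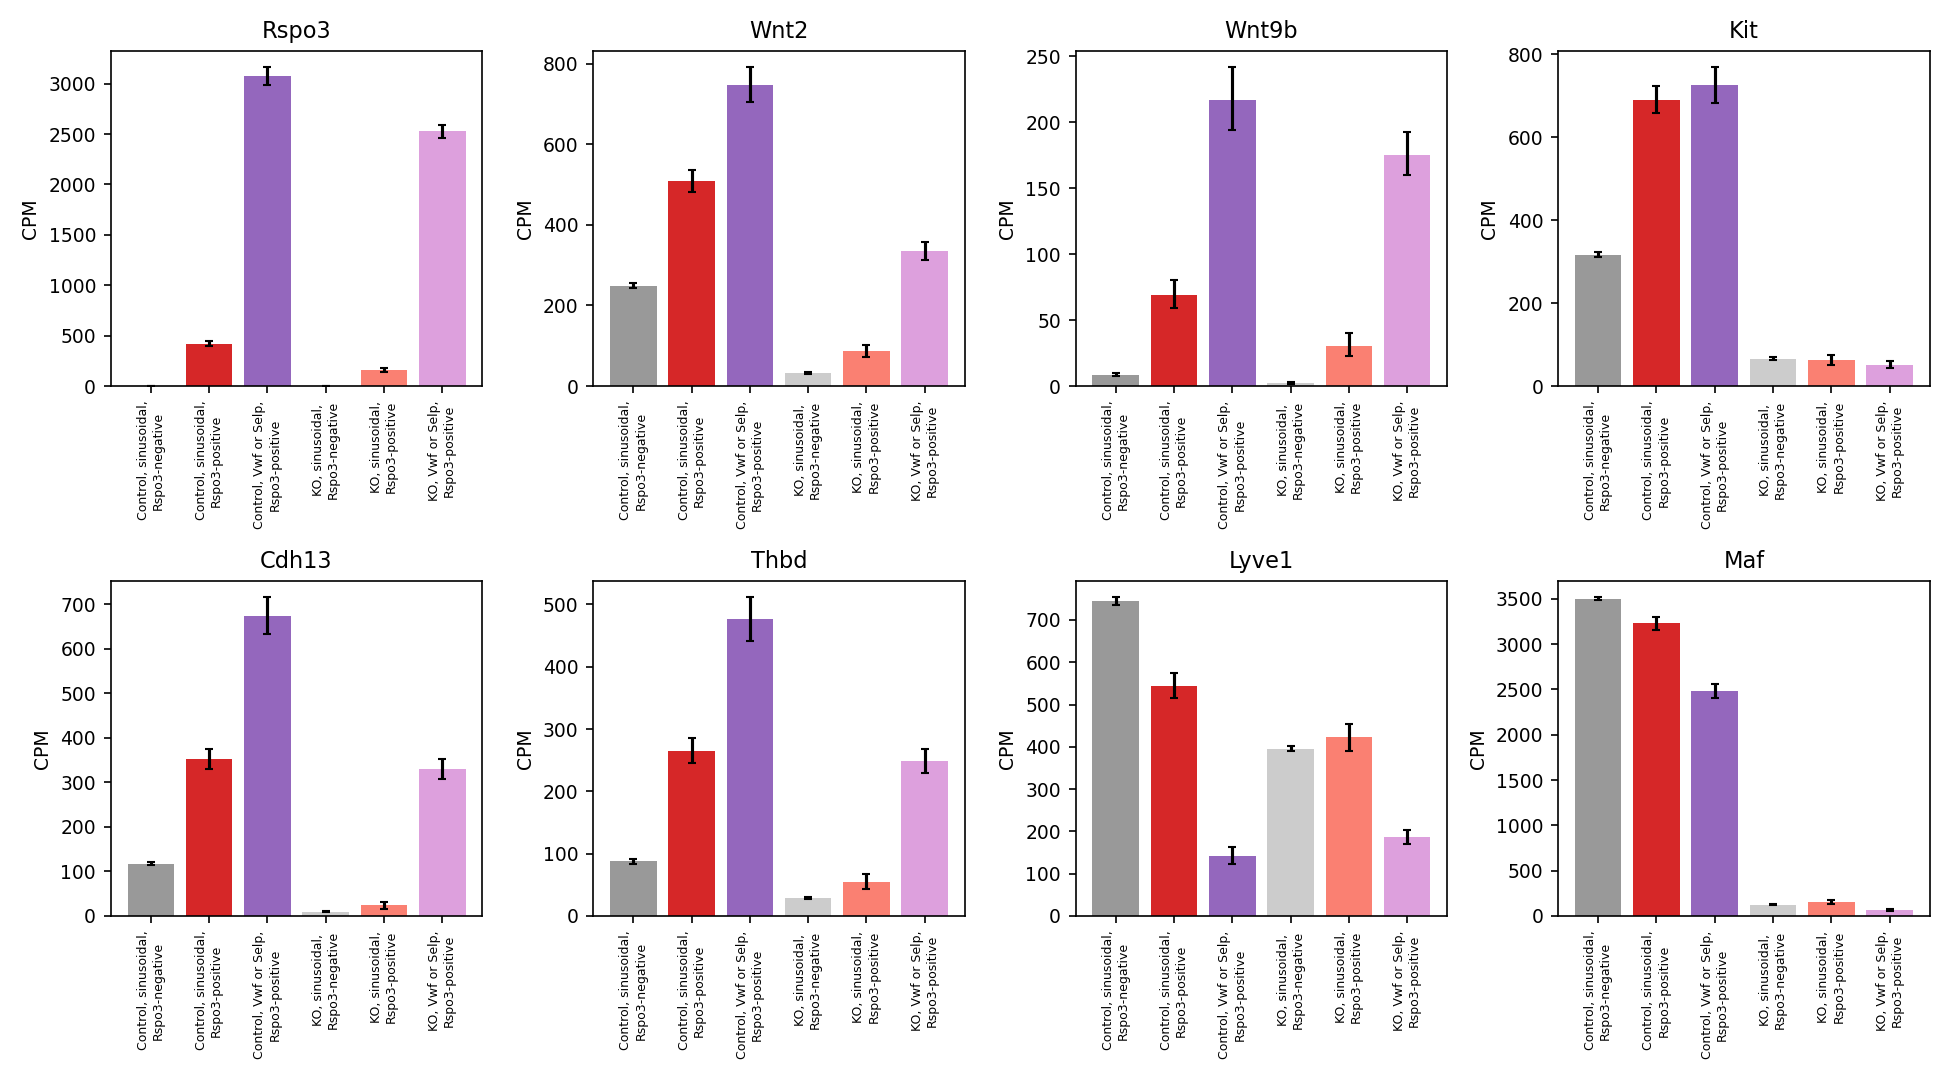
Level in CPM of *Rspo3*, *Wnt2*, *Wnt9b*, *Kit*, *Cdh13*, *Thbd*, *Lyve1* and *Maf* in *Rspo3*-negative and *Rspo3*-positive sinusoidal barcodes and in *Rspo3*-positive barcodes with *Vwf* or *Selp*, for the control and the *Maf* LSEC-KO (KO) library. Bars are summed UMIs given as CPM with exact Poisson 95% intervals, bars start at 0, and *Wnt2* stands at 509 CPM in control and 86.9 CPM in *Maf* LSEC-KO sinusoidal *Rspo3*-positive barcodes.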

How the data were processed

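Hepatic endothelial cells of 1 control and 1 *Maf* LSEC-KO pool of 3 mice were measured by 3′ scRNA-seq. The authors aligned reads to mm10 with Cell Ranger 6.0.2 and deposited raw UMI counts of 32285 genes for barcodes of at least 500 UMIs, without normalization (47681895 and 89872764 UMIs). Barcodes were selected as stated above. UMIs were summed per set and scaled to CPM of the set's total without ribosomal protein and mitochondrial genes. Ratios are called at 1.5-fold and at least 20 CPM in either set. Intervals are exact at 95% (Poisson, or Clopper-Pearson for shares), by scipy 1.17.1. Only for the shares of 0 in B cell and macrophage barcodes was a limit of 3 counts used instead. Scrublet (scanpy 1.11.5) marked 1 of 4961 barcodes with its automatic limit, so doublets were kept, and the 225 highest scores were left out in an alternative. The named genes were the markers and gate genes, the 15 largest and the 15 smallest ratios among genes of at least 50 CPM, the 15 most uneven genes (thinned mean of at least 0.1 UMI), and members of 23 lists past 1.5-fold or of zonal interest. *Bmp4* and *Fbln2* in the vein side were picked from these lists after their values were seen. The members and lists were chosen with earlier results of these data known. The computations were tested on simulated data, in which the plain ratio was shifted for genes whose level followed the UMI total of a barcode and the ratio at matched totals much less so.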

Additional observations from a re-analysis of the deposited data

Results flagged for a closer look

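In control *Rspo3*-positive barcodes *Fabp1*, a fatty acid carrier of hepatocytes, had a log2 ratio of -1.16 to *Rspo3*-negative barcodes (29.7 against 66.2 CPM), and in the *Maf* LSEC-KO library it had 1.46 (36.6 against 13.3 CPM). *Ier3*, an early response gene, had 0.68 in control (32.8 against 20.4 CPM) and -0.63 in *Maf* LSEC-KO (41.0 against 63.3 CPM). Both were singled out because the direction was opposite in the 2 libraries, and this difference was not tested, since each condition has 1 library. A single barcode held 19.7% of the *Fabp1* UMIs of the control *Rspo3*-positive barcodes.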

How the results depend on the processing

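No paired analysis was possible because each group has 1 library. The counts of genes past 1.5-fold (128 higher and 62 lower) became 209 and 129 with at least 2 *Rspo3* UMIs, 802 and 741 with barcodes thinned to 2700 UMIs and grouped anew, where fewer UMIs are summed, and 195 and 124 with the mean of CPM over barcodes. They were 56 and 20 at a minimum of 50 CPM, 1942 and 920 without a minimum, and 44 and 20 at 2-fold. Among alternatives chosen after seeing the data, 145 genes were lower with exactly 1 *Rspo3* UMI, and 73 were higher and 27 lower with at least 20 CPM in both sets. The median log2 ratio of *Wnt2*, *Wnt9b*, *Kit* and *Cdh13* (1.35) became 1.60 with at least 2 *Rspo3* UMIs and when thinned, 1.61 with the mean of CPM and 0.92 with exactly 1 UMI. The share of *Rspo3*-positive barcodes (6.34%) became 7.38% at a minimum of 5000 UMIs, 3.64% with at least 2 *Rspo3* UMIs and 3.32% when thinned. The direction reversed for *Hist1h1b* (-1.05), *Hist1h2ae* (-2.54) and *Hist1h2ap* (-2.39) when thinned, for *Hbb-bt* (1.68) without barcodes of over 2% hepatocyte and hemoglobin UMIs, and for *Mki67* (-0.97) without cycling barcodes (chosen after seeing the data, by *Mki67* and *Top2a* themselves). The cause was not tested. Of 410 values for 32 single genes, 306 moved by less than their counting interval and these 5 reversed. The other 99 moved by more, to larger or smaller ratios, and kept their sign. Leaving out the 11 barcodes of 20 or more *Rspo3* UMIs moved 2 of 32 single genes beyond it.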
